A study of Arabidopsis thaliana with 26 samples.

Results

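Plants of an msh1 memory line grown without drug were compared with wild-type plants grown on 5-azacytidine, to see which transcripts separate the memory state from demethylation by a drug. The comparison used 5 of the 10 biological replicates of an Arabidopsis thaliana RNA-sequencing study, with 2 for the memory line and 3 for wild type on the drug, and 15 of its 26 technical preparations, whose counts were summed within each biological replicate. All groups had the Columbia-0 background, were sown on agar with Murashige and Skoog medium and were collected at 10 days as whole plants, roots included. The memory line, labelled with the genotype msh1 memory line, received 0 µM 5-azacytidine, and the treated wild type received 100 µM. Memory plants are progeny of plants whose MSH1 gene had been suppressed, and the labels do not give the suppressing construct or the number of generations since its loss. The groups differed in genotype and in drug, so in this comparison alone the effects of the line and of the drug cannot be told apart. The remaining groups, 3 replicates of untreated wild type and 2 of the memory line on 100 µM 5-azacytidine, were therefore set beside it.

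The nuclear gene MSH1 encodes a protein that maintains the genomes of mitochondria and plastids, and plants from which its suppression has been removed can keep an altered growth state that is inherited without the construct. 5-Azacytidine is a cytidine analog that is built into nucleic acids and traps DNA methyltransferases, so that cytosine methylation is lost as cells divide. In Arabidopsis, cytosine methylation keeps transposons, tandem repeats and a small number of genes silent.

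The 5 replicates held 11412839 to 13544859 reads in genes. Levels are given as CPM, gene counts brought to a common library size with TMM factors, and differences as log2 fold changes of the memory line minus the treated wild type with their standard error (SE). A gene was called at an adjusted p under 0.05 in edgeR's quasi-likelihood test over all genes. Memory-line replicate 2 stood apart from the other libraries: multiply aligned reads made up 25.7% of its reads, and 6.49% to 13.6% of those of the other 9 replicates. Its root-mean-square log2 distance from memory-line replicate 1 was 0.57, against 0.392 to 0.424 among the treated wild-type replicates. The distances were 0.48 to 0.546 among the untreated wild-type replicates and 0.467 in the treated memory line. A distance between 2 replicates does not show which of them stands apart. The summed level of the 17 seed maturation markers was 44.5 CPM in memory-line replicate 2 and 2.14 to 4.15 CPM elsewhere. CRA1, a seed storage protein gene, was at 23.3 CPM in it, at 0.932 CPM in memory-line replicate 1 and at 0 to 0.292 CPM in the others, and the part of these features in the results was not tested. Shoot and leaf markers summed to 2431 to 4157 CPM and root epidermis, hair and cap markers to 37.3 to 66.7 CPM over all replicates, so both organs were represented. In bulk RNA, fewer cells of a type and less RNA per cell cannot be told apart.

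Of 22031 genes tested, 645 were called (2.93%). Of these, 300 were higher in the memory line (1.36%) and 345 were lower (1.57%), and 156 of the higher and 276 of the lower genes differed by at least 2-fold. In all 645 called genes the replicates of both groups did not overlap, which held for 34.5% of all genes tested. The median log2 fold change over all genes was -0.003. Without memory-line replicate 2, whose omission leaves a single memory-line library that is assumed to vary like the other groups, 170 genes were called, 147 of them among the 645. Leaving out treated wild-type replicate 1, 2 or 3 left 215, 323 and 378 called genes. Of the 60 called genes that the naming rule selected, 36 lost the call without memory-line replicate 2, and 25, 22 and 22 lost it without treated wild-type replicate 1, 2 or 3. Without memory-line replicate 1, 12 of them lost it (FRO2, IRT1, PHO2, VSP1, BG3, CYP81F2, GH3.2, IMD3, PAD4, SAG101, UGT74B1 and UPM1), with adjusted p from 0.0552 to 0.128.

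The treated memory line and the untreated wild type share no library with the compared groups and have the same genotype difference with the opposite drug difference. There, 1271 genes were called (5.77%), 710 of them higher (3.22%) and 561 lower (2.55%) in the treated memory line. Of the 645 genes, 176 were called in the opposite direction in that comparison, 40 in the same direction, and 429 were not called. The opposite calls comprised 66 of the 300 higher genes and 110 of the 345 lower genes, and the same-direction calls comprised 28 higher and 12 lower genes. Opposite signs, called or not, were found for 64% of the higher and 67.5% of the lower genes, against 51.9% of the 21386 genes not called.

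**Figure D1:**
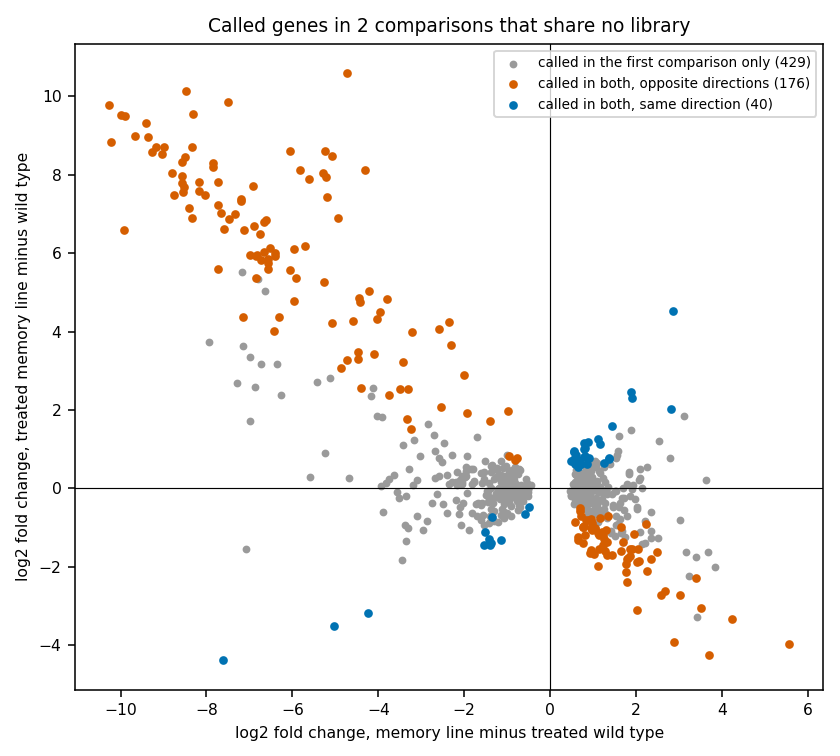
Each point is 1 of the 645 called genes, placed by its log2 fold change between the memory line and the treated wild type (x axis) and between the treated memory line and the untreated wild type (y axis). The 176 genes called in both comparisons with opposite signs reach from the upper left to the lower right, and the 40 called with the same sign lie nearer the centre on the other diagonal, apart from a few lower genes.

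The level of untreated wild type lay between those of the compared groups for 501 of the 645 genes (77.7%). It was closer to the memory line for 399 (61.9%) and to the treated wild type for 246 (38.1%). The level in the treated memory line lay between for 517 genes (80.2%) and was closer to the treated wild type for 419 (65%). The 645 genes were chosen for a difference between the compared groups, so another group tends to fall between them. The same shares over genes not called were not computed. Against untreated wild type itself, 258 genes were called for memory plants (1.17%) and 1408 for treated wild type (6.39%). Both of these comparisons use the untreated wild-type libraries, so their values are set side by side below for single genes and are not counted together.

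The MSH1 transcript was measured at 13.3 and 10.6 CPM in memory plants and at 12.4, 20.4 and 13.7 CPM in treated wild type. The groups overlapped, and the log2 fold change was -0.36 (SE 0.25, adjusted p = 0.517, edgeR). Untreated wild type held 9.47, 8.67 and 14 CPM, so the transcript was present in the memory line at a level within its range.

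Genes that DNA methylation keeps silent included some of the strongest differences. Of the 12 tested members of a list of methylation-silenced and imprinted loci, 3 were lower in the memory line (25%, against 1.57% of all genes) and none was higher. The median of the list was -0.16. SDC, an F-box gene silenced through tandem repeats in its promoter, had 0.717 and 0.282 CPM in the memory line against 8.14, 8.83 and 8.95 CPM in the treated wild type, a log2 fold change of -4.02 (SE 0.41, adjusted p = 0.000177, edgeR). QQS, an orphan gene that affects starch content and whose expression varies with its methylation, had 1.51 and 5.45 CPM against 33.5, 23.6 and 36.1 CPM (-3.21, SE 0.49, adjusted p = 0.0121). Both memory-line replicates lay far below every treated wild-type replicate at these loci and close to untreated wild type, which held 0.236 to 0.662 CPM of SDC and 0.882 to 2.84 CPM of QQS. MRU1 showed the same order, with 1.86 and 0.47 CPM against 25.9, 17.1 and 21 CPM (-4.10, SE 0.48, adjusted p = 0.00111). The treated memory line had 7.57 and 8.46 CPM of SDC and 32 and 31.4 CPM of QQS, whereas its MRU1 values were 23.2 and 10.6 CPM, the second below the treated wild type. Of the SDC gene, 80.2% is overlapped by exons on the other strand, and the library kit does not mark strand, so its reads cannot be assigned to 1 strand.

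FWA, an imprinted homeobox gene silenced by methylation of its promoter repeats, had 0 and 0.376 CPM in the memory line against 4.07, 0.93 and 8.4 CPM in the treated wild type, and 0 CPM in all untreated wild-type replicates. The groups did not overlap, but the treated replicates varied widely and the gene was not called (adjusted p = 0.119, edgeR). It was called without treated wild-type replicate 2 (adjusted p = 0.0217). The imprinted genes MEA and FIS2 were low in all samples, at no more than 0.875 and 1.25 CPM, and were not called. The log2 fold change was -0.09 for SNC1, a resistance gene, -0.23 for IBM1, a histone demethylase gene, and 0.26 for ROS1, a DNA demethylase gene, and none was called. ROS1 was not silent in untreated wild type, at 63.9 to 74.9 CPM, and held 40.7 to 61.6 CPM in the treated wild type.

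An on-off pattern was also found among called genes outside the listed loci. Among the 345 lower genes, 85 were under 0.5 CPM in both memory-line replicates and above 1 CPM in all 3 treated wild-type replicates. Of these, 72 were also under 0.5 CPM in all untreated wild-type replicates, and 59 of the 72 were above 1 CPM in both treated memory-line replicates. The reverse pattern, near 0 in the treated wild type and on in the memory line, held for 9 of the 300 higher genes. These counts cover only genes called in this same comparison, and the 72 passed the count filter only through the treated groups. The share of all tested genes within the same CPM limits was not computed, so the counts are descriptions. AT2G03965, a gene for an uncharacterized protein, had 0.215 and 0.094 CPM in the memory line against 62, 40.5 and 61.4 CPM in the treated wild type and 54 and 38.9 CPM in the treated memory line. AT3G01345, also uncharacterized, had 0.574 and 0.094 CPM against 67.5, 49.6 and 48.3 CPM, and 55.6 and 57.6 CPM in the treated memory line. Noncoding genes made up 17 of the 85, 34 of all 345 lower genes (9.86%), 17 of the 300 higher genes (5.67%) and 6.04% of all genes tested.

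**Figure D2:**
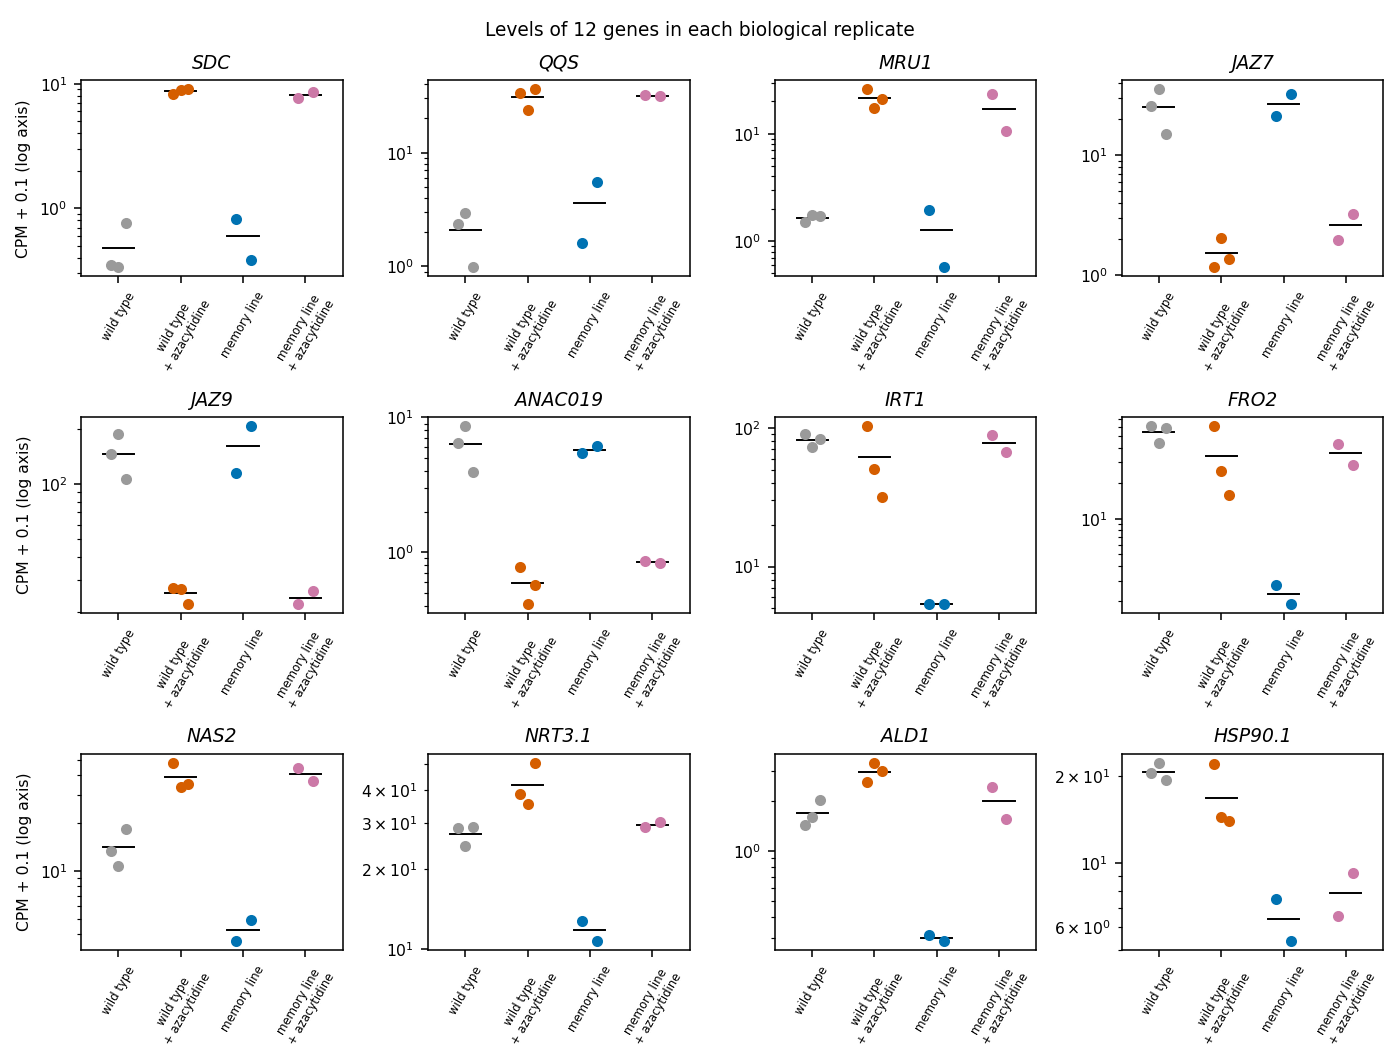
Levels of 12 genes in each biological replicate, as CPM + 0.1 on log axes that differ between panels, with points for replicates and bars for group means. SDC, QQS and MRU1 are high in both treated groups, JAZ7, JAZ9 and ANAC019 are low in both treated groups, and IRT1, FRO2, NAS2, NRT3.1 and ALD1 are lowest in the untreated memory line, while HSP90.1 is low in both memory-line groups.

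Genes that write and read DNA methylation gave no call. Of 33 tested members of the methylation and silencing machinery, edgeR called none, 2 were lower at an unadjusted p under 0.05, and DESeq2 and limma voom called 0 and 1. MET1, the maintenance methyltransferase of CG sites, had 52.6 and 45.2 CPM against 56.8, 65.8 and 57.9 CPM (log2 fold change -0.30, SE 0.15, adjusted p = 0.349). CMT3, which methylates CHG sites, had 41.9 and 30.5 CPM against 50.5, 55.5 and 48.9 CPM (-0.51, SE 0.20, adjusted p = 0.239). For both genes the replicates did not overlap, and neither passed the test. DDM1, a chromatin remodeler required for methylation, overlapped between the groups, with a log2 fold change of -0.07 (adjusted p = 0.917).

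Of 32 tested genes of the DNA damage response, 2 were lower in the memory line (6.25%, against 1.57% of all genes) and none was higher, with a median of -0.16. Leaving out memory-line replicate 2 gave 1 higher, none lower and a median of 0.03. SMR7, a cell-cycle inhibitor induced by DNA damage, had 1.08 and 0.282 CPM against 3.09, 2.56 and 5.02 CPM (log2 fold change -2.30, SE 0.49, adjusted p = 0.0257, edgeR). TK1A, a thymidine kinase that supplies nucleotides for repair, had 16.1 and 12.1 CPM against 26.8, 22.2 and 23.9 CPM (-0.77, SE 0.18, adjusted p = 0.0316). Untreated wild type was nearer to the memory line at both genes, with 0.368 to 0.582 CPM of SMR7 and 11.3 to 15.2 CPM of TK1A. BRCA1, a repair gene, had 16.2 and 7.14 CPM against 14.8, 13 and 15.1 CPM and was not called (adjusted p = 0.718), its memory-line replicates lying on either side of the treated wild type. The calls of SMR7 and TK1A were lost without memory-line replicate 2, where their log2 fold changes were -1.71 and -0.59 (adjusted p = 0.197 and 0.275), and without treated wild-type replicate 1 or 3.

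Of the lists examined, those of the jasmonate pathway held the most genes called higher in the memory line. Jasmonate is a lipid-derived hormone of wounding and defence: its isoleucine conjugate binds the receptor COI1 and causes JAZ repressor proteins to be degraded, which frees MYC transcription factors, and JAZ genes are themselves targets of MYC factors. Over 4 lists with 50 tested members, 17 were called higher in the memory line (34%, against 1.36% of all genes), and none was called lower. None was lower at an unadjusted p under 0.05 either. The median log2 fold change of the 50 was 0.67, and in the treated memory line against untreated wild type it was -1.20.

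Upstream sequences are shown for the called jasmonate genes whose 250 bases before the annotated start hold a G-box, the hexamer CACGTG that MYC factors are known to bind. The G-box, which reads the same on both strands, was searched in those 250 bases for every tested gene with a reference position. It was found for 5 of the 17 called jasmonate genes (29.4%) and 8 of the 50 tested (16%). Over all called genes it was found for 35 of 300 higher genes (11.7%) and 17 of 345 lower genes (4.93%), against 6.9% of all 22024 upstream regions. The W-box, searched as TTGACC or TTGACT on both strands, was in 24.7% of the higher, 30.1% of the lower and 28.2% of all upstream regions. These letters describe the sequence and do not show that a factor binds there. The sequences below are from the RefSeq annotation of TAIR10.1, are written 5′ to 3′ on the strand of the gene, and have the G-box in capitals.
JAZ7: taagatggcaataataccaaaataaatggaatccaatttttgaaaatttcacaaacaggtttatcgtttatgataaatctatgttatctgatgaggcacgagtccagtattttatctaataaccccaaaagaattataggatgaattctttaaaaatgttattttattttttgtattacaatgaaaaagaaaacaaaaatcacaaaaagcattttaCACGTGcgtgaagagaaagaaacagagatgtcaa
JAZ2: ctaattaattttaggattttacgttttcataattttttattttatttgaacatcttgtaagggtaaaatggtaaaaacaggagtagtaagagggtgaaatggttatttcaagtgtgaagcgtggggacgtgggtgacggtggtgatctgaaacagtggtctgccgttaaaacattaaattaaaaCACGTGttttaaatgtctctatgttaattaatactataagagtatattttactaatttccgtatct
JAZ3: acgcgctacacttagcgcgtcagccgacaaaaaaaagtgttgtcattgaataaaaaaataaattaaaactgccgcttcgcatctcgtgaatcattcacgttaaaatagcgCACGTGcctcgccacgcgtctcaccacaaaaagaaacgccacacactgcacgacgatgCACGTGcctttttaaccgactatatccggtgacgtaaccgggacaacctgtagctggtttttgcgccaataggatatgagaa
JAZ8: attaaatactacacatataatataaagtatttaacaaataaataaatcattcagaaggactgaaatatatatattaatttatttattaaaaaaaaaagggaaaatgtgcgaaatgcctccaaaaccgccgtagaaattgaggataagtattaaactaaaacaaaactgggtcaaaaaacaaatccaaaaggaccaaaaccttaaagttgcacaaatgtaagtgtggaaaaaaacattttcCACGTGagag
ANAC019: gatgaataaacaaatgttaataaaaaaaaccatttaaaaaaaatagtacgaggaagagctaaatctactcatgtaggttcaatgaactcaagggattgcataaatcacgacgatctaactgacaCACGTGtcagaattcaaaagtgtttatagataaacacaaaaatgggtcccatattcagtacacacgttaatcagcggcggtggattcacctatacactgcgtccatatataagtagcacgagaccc
JAZ7 lies at chr2:14573030-14573952, and its region is chr2:14572780-14573029 on the plus strand. The region of JAZ2 is chr1:28150447-28150696 on the minus strand, and that of JAZ3, with 2 copies, is chr3:6119457-6119706 on the plus strand. The region of JAZ8 is chr1:10596102-10596351 on the plus strand and that of ANAC019 is chr1:19698483-19698732 on the minus strand. The first base of the hexamer lies 34 bases before the gene start in JAZ7, 66 in JAZ2, 82 in JAZ3 for the nearer copy, 10 in JAZ8 and 126 in ANAC019.

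All 12 JAZ repressor genes had a positive log2 fold change, with a median of 1.04, and 7 were called. JAZ7 had 21.4 and 32.6 CPM in the memory line against 1.06, 1.94 and 1.26 CPM in the treated wild type (log2 fold change 4.24, SE 0.41, adjusted p = 0.000481, edgeR). JAZ9 had 115 and 207 CPM against 27.1, 26.6 and 22.1 CPM (2.67, SE 0.27, adjusted p = 0.000552). Each memory-line replicate was several times above each treated replicate at both genes, and inside or near the range of untreated wild type, which was 14.9 to 35.6 CPM for JAZ7 and 106 to 187 CPM for JAZ9. JAZ6 had 139 and 186 CPM against 70.4, 53.5 and 56.3 CPM (1.44, SE 0.20, adjusted p = 0.00258). JAZ2 had 56.1 and 56.9 CPM against 28.1, 24.6 and 24.9 CPM (1.13, SE 0.15, adjusted p = 0.00108). These ranges did not overlap either, and JAZ2 in the memory line lay below the 64.4 to 93.4 CPM of untreated wild type.

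JAZ8, JAZ5 and JAZ3 were the other called repressors, with log2 fold changes of 3.69, 1.77 and 0.77 (adjusted p = 0.026, 0.00421 and 0.0154, edgeR). JAZ8 was a low gene, at 2.37 and 1.13 CPM against 0.226, 0.155 and 0 CPM. JAZ10 had 11 and 7.05 CPM against 6.11, 4.65 and 3.22 CPM and was not called (0.96, SE 0.29, adjusted p = 0.114). Its memory-line values were below the 16.6 to 27.9 CPM of untreated wild type, and its log2 fold change between these was -1.28. The log2 fold changes of the remaining uncalled members were 0.66 for JAZ4, 0.64 for JAZ1, 0.48 for JAZ12 and 0.01 for JAZ11. Without memory-line replicate 2, 6 JAZ genes were called and the median was 1.17.

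**Figure D3:**
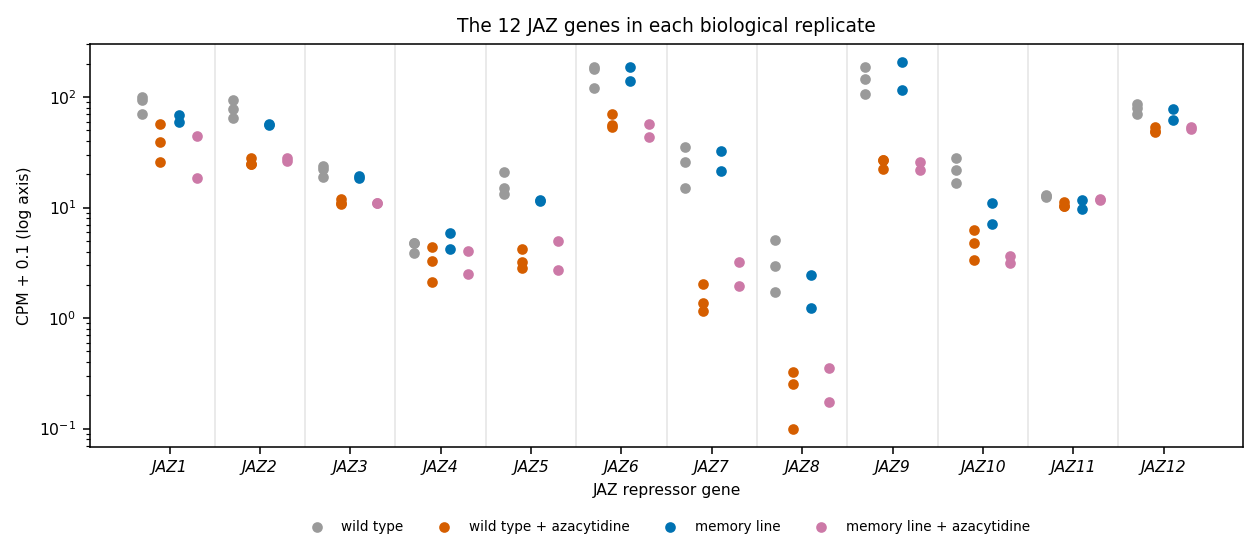
Levels of the 12 JAZ genes in each biological replicate of the 4 groups, as CPM + 0.1 on a log axis. For JAZ7, JAZ8 and JAZ9 the memory line and untreated wild type lie together, well above both treated groups, while the 4 groups lie close together for JAZ11.

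Of 14 tested genes for jasmonate synthesis, 3 were higher. AOC1, an allene oxide cyclase, had 63.5 and 133 CPM against 27.1, 27 and 17 CPM (log2 fold change 2.05, SE 0.33, adjusted p = 0.0146, edgeR). OPR3, the reductase of the jasmonate precursor OPDA, had 120 and 199 CPM against 51.6, 56.3 and 43.5 CPM (1.66, SE 0.23, adjusted p = 0.00306). LOX3, a lipoxygenase at the entry of the pathway, had 30 and 49.8 CPM against 9.35, 12.8 and 10.7 CPM (1.86, SE 0.33, adjusted p = 0.0178). The groups did not overlap at these genes, and memory-line replicate 2 was the higher of its pair at each. LOX2, AOS and AOC2, which act at the same steps or between them, had log2 fold changes of 0.86, 0.58 and 0.51 and were not called. JAR1, which makes the active isoleucine conjugate, was at -0.02.

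Of 7 tested genes for turnover of the hormone, 3 were higher. ILL6, an amidohydrolase that cleaves jasmonoyl-isoleucine, had 27.2 and 48.6 CPM against 2.94, 4.03 and 3.85 CPM (log2 fold change 3.39, SE 0.28, adjusted p = 7.89e-05, edgeR). CYP94C1 and CYP94B1, cytochromes P450 that oxidise the conjugate, had log2 fold changes of 1.94 (SE 0.20, adjusted p = 0.000247) and 2.51 (SE 0.48, adjusted p = 0.0161). CYP94C1 was at 34.5 and 46.3 CPM against 12, 12.1 and 7.46 CPM, with no overlap.

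Among 17 tested signalling and output genes, 4 were higher. MYC2, the central transcription factor, had 62.5 and 65.5 CPM against 32.6, 37.3 and 28.9 CPM (log2 fold change 0.96, SE 0.18, adjusted p = 0.0146, edgeR), and 98.5% of the gene is overlapped by exons on the other strand. The related factors MYC3 and MYC4 were at 0.04 and -0.05 and the receptor gene COI1 at -0.16, none of them called. ANAC019, a NAC transcription factor downstream of MYC2, had 5.31 and 6.01 CPM against 0.678, 0.31 and 0.471 CPM (3.51, SE 0.41, adjusted p = 0.000544). VSP2, a vegetative storage protein and standard output marker, had 83.7 and 154 CPM against 22.9, 30 and 17.1 CPM (2.34, SE 0.27, adjusted p = 0.00164). Its neighbour VSP1 had 106 and 120 CPM against 16.4, 26 and 24.3 CPM (2.35, SE 0.38, adjusted p = 0.02). The 2 storage-protein genes differed in where untreated wild type lay: at 67.4 to 85 CPM of VSP2, it met the lower memory-line replicate, and at 28.8 to 43 CPM of VSP1 it stayed below both. The outputs of the branch shared with ethylene gave no call, with 0.46 for PDF1.2, a defensin, and -0.17 for ORA59, its activator.

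Outside the lists, FAMT, a methyltransferase, had 9.83 and 14.8 CPM against 2.64, 1.7 and 0.628 CPM (log2 fold change 2.88, SE 0.48, adjusted p = 0.0117, edgeR). CYP81D11, a cytochrome P450 known to respond to jasmonate and to foreign chemicals, had 31.1 and 62.2 CPM against 9.65, 7.9 and 11.9 CPM (2.24, SE 0.40, adjusted p = 0.0283), below the 54 to 110 CPM of untreated wild type in 1 replicate and inside it in the other. Without memory-line replicate 2 the calls of LOX3, CYP94B1, MYC2, VSP1, FAMT and CYP81D11 were lost, with adjusted p from 0.0925 for FAMT to 0.175 for CYP81D11, and each was also lost without at least 1 treated wild-type replicate. VSP1 was lost without memory-line replicate 1 as well (adjusted p = 0.0594).

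Several iron uptake genes of the root were lower in the memory line. Arabidopsis acidifies the rhizosphere, reduces ferric iron with FRO2, imports it through IRT1 and moves it bound to nicotianamine. Of 23 tested members of an iron list, 7 were lower (30.4%, against 1.57% of all genes), none was higher, also at an unadjusted p under 0.05, and the median was -0.69. IRT1 had 5.24 and 5.26 CPM in the memory line against 103, 50.5 and 31.5 CPM in the treated wild type (log2 fold change -3.56, SE 0.53, adjusted p = 0.0154, edgeR). FRO2 had 2.65 and 1.79 CPM against 60.4, 25.4 and 15.9 CPM (-3.90, SE 0.70, adjusted p = 0.0341). Both memory-line replicates lay below all others for both genes, since untreated wild type held 72.2 to 90.8 CPM of IRT1 and 43.6 to 60.7 CPM of FRO2, and the treated memory line 66.7 to 88.8 CPM and 28.6 to 43 CPM.

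NAS2, a nicotianamine synthase, was the iron gene with the smallest p, at 3.51 and 4.79 CPM against 47.7, 33.9 and 35.2 CPM (log2 fold change -3.24, SE 0.27, adjusted p = 6.41e-05, edgeR). Untreated wild type was between the groups at 10.6 to 18.3 CPM, with log2 fold changes of -1.78 for the memory line and 1.46 for the treated wild type against it. NAS1, of the same family, had 15.1 and 14.3 CPM against 36, 24.6 and 25 CPM (-0.96, adjusted p = 0.0249). MTPA2, a vacuolar metal transporter, had 4.16 and 6.95 CPM against 17.3, 12.4 and 15.1 CPM (-1.44, SE 0.22, adjusted p = 0.00386). ABCG37, an exporter of iron-binding phenolics, and AHA2, the proton pump that acidifies the soil, were lower by smaller amounts. Their log2 fold changes were -0.95 (SE 0.15, adjusted p = 0.00448) and -0.99 (SE 0.16, adjusted p = 0.005).

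The transcription factors upstream of these genes gave no call. The log2 fold changes of BHLH38, BHLH39, BHLH100 and BHLH101 were -0.55, -0.44, -0.33 and 0.51, and BTS, a ligase that represses the response, was at 0.14. CYP82C4, a root enzyme of coumarin synthesis, had 0.717 and 0.564 CPM against 60.7, 19.8 and 8.71 CPM, and the spread among the treated replicates left it uncalled (adjusted p = 0.112). Without memory-line replicate 2, 2 iron genes were called, and the calls of IRT1, FRO2, ABCG37 and AHA2 were lost (adjusted p = 0.182, 0.271, 0.0707 and 0.0799). IRT1 and FRO2 were also not called when only the 2 compared groups were fitted (adjusted p = 0.107 and 0.139), nor without memory-line replicate 1 (0.0843 and 0.125).

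Of 18 tested genes for nitrate uptake and assimilation, 4 were lower in the memory line (22.2%, against 1.57% of all genes) and none was higher, with a median of -0.58. NRT3.1, the partner protein of the high-affinity nitrate transporters, had 12.7 and 10.6 CPM against 38.5, 35.4 and 50.4 CPM (log2 fold change -1.82, SE 0.18, adjusted p = 0.000125, edgeR). GLN1;2, a cytosolic glutamine synthetase, had 312 and 260 CPM against 697, 685 and 861 CPM (-1.39, SE 0.19, adjusted p = 0.00135). NIR1, nitrite reductase, had 213 and 157 CPM against 394, 458 and 381 CPM (-1.15, SE 0.21, adjusted p = 0.0107). At each of these genes untreated wild type was between the groups, with 24.4 to 28.8 CPM of NRT3.1, 387 to 500 CPM of GLN1;2 and 220 to 290 CPM of NIR1. UPM1, an enzyme for the siroheme cofactor of nitrite reductase, was lower by 0.86 on the log2 scale (log2 fold change -0.86, SE 0.20, adjusted p = 0.0336). NRT2.1, the transporter itself, had 0.287 and 0.564 CPM against 13.6, 16.2 and 60.2 CPM and was not called (adjusted p = 0.0796). NIA1 and NIA2, the nitrate reductases, were at 0.10 and -0.56, also uncalled. NIR1 and UPM1 lost their calls without memory-line replicate 2 (adjusted p = 0.126 and 0.247).

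On the phosphate and auxin lists, 2 of 19 (10.5%) and 3 of 23 (13%) tested genes were lower, against 1.57% of all genes, and none was higher. PHO2, a ubiquitin-conjugating enzyme that limits phosphate uptake, had 81.3 and 102 CPM against 160, 173 and 201 CPM (log2 fold change -0.96, SE 0.19, adjusted p = 0.0159, edgeR). The phosphate exporter gene PHO1 was the other called member of 19, at -0.83 (adjusted p = 0.039). The called auxin genes were GH3.3 and GH3.2, which conjugate auxin to amino acids, and PIN3, an efflux carrier. GH3.3 had 9.68 and 10.8 CPM against 26.9, 26.2 and 26.3 CPM (-1.37, SE 0.17, adjusted p = 0.000741), and the range of untreated wild type, 9.22 to 12.6 CPM, held both memory-line values. GH3.2 and PIN3 were at -1.25 and -0.52 (adjusted p = 0.0431 and 0.0417). PHO1, GH3.2 and PIN3 lost their calls without memory-line replicate 2 (adjusted p = 0.318, 0.211 and 0.335), and PHO2 without memory-line replicate 1 (0.0701) and without treated wild-type replicate 3.

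Most genes on 2 lists of salicylate-related immunity had lower values in the memory line, although few passed the test. Salicylate is the hormone of resistance to biotrophic pathogens and acts with pipecolate, which spreads resistance through the plant. Of the 32 tested members, 30 had negative log2 fold changes, with a median of -1.07, and 4 were called lower (12.5%, against 1.57% of all genes). At an unadjusted p under 0.05, 20 were lower and 1 was higher. ALD1, the first enzyme of pipecolate synthesis, had 0.215 and 0.188 CPM against 2.49, 3.25 and 2.9 CPM (-3.76, SE 0.51, adjusted p = 0.00139, edgeR). PAD4 and SAG101, partners of the immune regulator EDS1, were at -1.08 (SE 0.25, adjusted p = 0.0384) and -0.72 (SE 0.16, adjusted p = 0.0283). WRKY60, a transcription factor, was at 9.47 and 5.73 CPM against 18.5, 11 and 16.5 CPM (adjusted p = 0.0489). The ALD1 levels did not overlap with any of the other groups, since untreated wild type held 1.33 to 1.91 CPM. PAD4 was at 14.6 and 12.2 CPM against 37.5, 25.4 and 22.3 CPM, whereas SAG101, at 17.1 and 15.9 CPM, was inside the untreated wild-type range of 13.8 to 17.1 CPM.

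PR1, the classical marker of salicylate signalling, had 2.37 and 0 CPM in the memory line against 93.5, 28.3 and 24.7 CPM in the treated wild type. PR2, a glucanase with a similar use, had 3.37 and 0.282 CPM against 66.9, 17.1 and 30.1 CPM. Neither passed the test (adjusted p = 0.267 and 0.111), and PR1 ranged from 0 to 12.9 CPM in untreated wild type. ICS1 and EDS1, the synthesis enzyme and the regulator, were at -0.91 and -1.09 without a call (adjusted p = 0.0808 and 0.0651). PAD4, SAG101 and WRKY60 lost their calls without memory-line replicate 2 (adjusted p = 0.272, 0.204 and 0.363), and the call of WRKY60 was lost under most other alternatives as well.

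The lower genes with the largest changes among those with a symbol and a mean of at least 5 CPM included receptor-like kinase genes. CRK6, a cysteine-rich receptor-like kinase, had 0.43 and 0 CPM against 16.3, 6.35 and 9.73 CPM (fitted log2 fold change -5.43, SE 0.75, adjusted p = 0.00269, edgeR), and untreated wild type held at most 0.415 CPM. So near 0 the fitted size is imprecise, at -4.62 without memory-line replicate 2 and -10.09 without replicate 1. CRK4 had 7.67 and 2.16 CPM against 58.2, 66.4 and 43.9 CPM (-3.46, SE 0.65, adjusted p = 0.0399). In CRK4, unlike CRK6, untreated wild type at 33.2 to 65.4 CPM stood with the treated wild type. CRK12 had 1.94 and 0.376 CPM against 13, 10.4 and 10.4 CPM (-3.20, SE 0.69, adjusted p = 0.0391), and RK1, an S-domain receptor kinase, had 1.36 and 0.188 CPM against 11.7, 8.06 and 5.89 CPM (-3.36, SE 0.60, adjusted p = 0.0132). BG3, a beta-glucanase related to PR2, had 0.932 and 0.658 CPM against 13, 6.2 and 5.18 CPM (-3.32, SE 0.69, adjusted p = 0.0288). GSTF14, a glutathione S-transferase, had 16.4 and 4.51 CPM against 81.6, 83.8 and 95.3 CPM (-3.02, SE 0.45, adjusted p = 0.0142), and untreated wild type lay between at 25 to 39.3 CPM. Without memory-line replicate 2 the calls of CRK4, CRK12, RK1 and BG3 were lost (adjusted p = 0.218, 0.218, 0.0629 and 0.233), and that of GSTF14 was lost only with the compared groups fitted alone.

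The heat shock, endoplasmic reticulum and glucosinolate lists had 1 to 4 called members each. Called lower were 6.25% of the heat shock, 5.56% of the endoplasmic reticulum, 5.56% of the aliphatic and 5.26% of the indole glucosinolate genes. Each of these shares is 1 gene, and 1.57% of all genes were called lower. Called higher were 15.8% of the indole glucosinolate genes, against 1.36% of all genes. HSP90.1, a heat-induced chaperone, had 7.39 and 5.26 CPM against 21.9, 14.3 and 13.9 CPM (log2 fold change -1.39, SE 0.25, adjusted p = 0.00952, edgeR), 1 of 16 heat shock genes called. BIP3, a stress-induced chaperone of the endoplasmic reticulum, had 1.65 and 0.094 CPM against 9.72, 4.57 and 6.04 CPM (-2.85, SE 0.61, adjusted p = 0.0295), 1 of 18. Untreated wild type grouped with the treated wild type for HSP90.1, at 19.3 to 22.1 CPM, and with the memory line for BIP3, at 0.735 to 1.1 CPM. Of 19 indole glucosinolate genes, 3 were higher: MYB34, a regulator of the pathway (0.97, SE 0.15, adjusted p = 0.00335), CYP79B3, which acts on tryptophan (2.46-fold, adjusted p = 0.0272), and UGT74B1, a glucosyltransferase (0.58, SE 0.13, adjusted p = 0.0293). CYP81F2, which modifies the finished indole glucosinolate, was lower at 9.9 and 8.74 CPM against 33.7, 28.3 and 21 CPM (-1.56, SE 0.30, adjusted p = 0.0215). IMD3, of aliphatic glucosinolate synthesis, was lower at -0.56 (SE 0.14, adjusted p = 0.0448). Without memory-line replicate 2 none of these 7 calls was kept, with adjusted p from 0.0564 for MYB34 to 0.306 for IMD3.

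Some of the largest higher values rested on memory-line replicate 2, the library with the raised seed markers. RAB18, a dehydrin of drought and seeds, had 6.02 and 22.8 CPM against 2.86, 2.09 and 3.53 CPM (log2 fold change 2.33, SE 0.52, adjusted p = 0.0411, edgeR). MYB47, a transcription factor, had 9.54 and 38.2 CPM against 6.63, 5.89 and 4.87 CPM (2.03, SE 0.45, adjusted p = 0.0424). Without that replicate their log2 fold changes were 1.09 and 0.72 (adjusted p = 0.392 and 0.304). RAB18 was 1 of 2 called higher among 24 abscisic acid genes (8.33%, against 1.36% of all genes), and none was lower. RD20, a drought-induced lipid-body protein, was the other, at 3.08 and 5.17 CPM against 1.21, 0.93 and 0.628 CPM (2.14, SE 0.51, adjusted p = 0.0398, edgeR). It was also not called without memory-line replicate 2, where its log2 fold change was 1.73. MLP329, a major-latex-protein-like gene, and PGL5, a gene for a 6-phosphogluconolactonase, kept their calls without it. MLP329 had 32.1 and 52.3 CPM against 7.69, 9.61 and 9.65 CPM (2.23, SE 0.23, adjusted p = 0.000259), and PGL5 had 14.1 and 25.2 CPM against 3.62, 3.49 and 5.65 CPM (4.59-fold, adjusted p = 0.000873). For both, untreated wild type was between the groups, at 21.2 ± 1.9 CPM and 9.08 ± 0.946 CPM (mean ± SD, n = 3).

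Of 23 flowering genes, 2 were higher (8.7%, against 1.36% of all genes) and none was lower. SOC1, a flowering activator, had 37.3 and 37.5 CPM against 24.9, 20.8 and 23.4 CPM (log2 fold change 0.70, SE 0.13, adjusted p = 0.0132, edgeR). SPL3, a phase-change factor of which 97.3% is overlapped by exons on the other strand, had 6.67 and 8.93 CPM against 3.17, 3.56 and 3.85 CPM (1.14, SE 0.25, adjusted p = 0.0263). Both were near untreated wild type in the memory line, at 33.2 to 38 CPM and 7.43 to 10.7 CPM, and both lost the call without memory-line replicate 2 (adjusted p = 0.0887 and 0.233). FLC, a flowering repressor, overlapped between the groups at 2.08 and 3.85 CPM against 2.71, 3.95 and 1.57 CPM (0.09, SE 0.41, adjusted p = 0.94).

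All 16 tested evening clock genes had positive log2 fold changes with a median of 0.29. EdgeR called none, 3 were higher at an unadjusted p under 0.05, and DESeq2 and limma voom called 0 and 2. The median was -0.03 without memory-line replicate 2. Of 14 tested morning clock genes, 11 were positive, with a median of 0.53, or 0.13 without that replicate. Of these 14, edgeR called none, 4 were higher at an unadjusted p under 0.05, and DESeq2 and limma voom called 0 and 1. TOC1, an evening repressor, had 200 and 270 CPM against 181, 208 and 163 CPM (0.35, SE 0.16, adjusted p = 0.292), and CCA1, its morning counterpart, had 6.02 and 16.5 CPM against 3.92, 3.56 and 8.55 CPM (1.06, SE 0.63, adjusted p = 0.462). The single memory-line library with the highest value was replicate 2 for both, and the groups overlapped. Growth genes gave no call. Of 40 genes of DNA replication and mitosis, 38 were negative with a median of -0.31, and 10 were lower at an unadjusted p under 0.05. Neither DESeq2 nor limma voom called any. Without memory-line replicate 2 the medians were -0.09 for DNA replication and -0.18 for mitosis, against -0.31 for each with it. Of 15 mitochondrial and oxidative stress genes, edgeR called none, 1 was higher and 2 were lower at an unadjusted p under 0.05, and DESeq2 and limma voom called 1 and 2. A listed member without a match in the annotation was not tested, and AT2G21640, annotated as a marker of oxidative stress, was called higher but is not among the 15. AOX1A, the alternative oxidase of mitochondria, was at 0.14 (SE 0.19, adjusted p = 0.78).

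**Figure D4:**
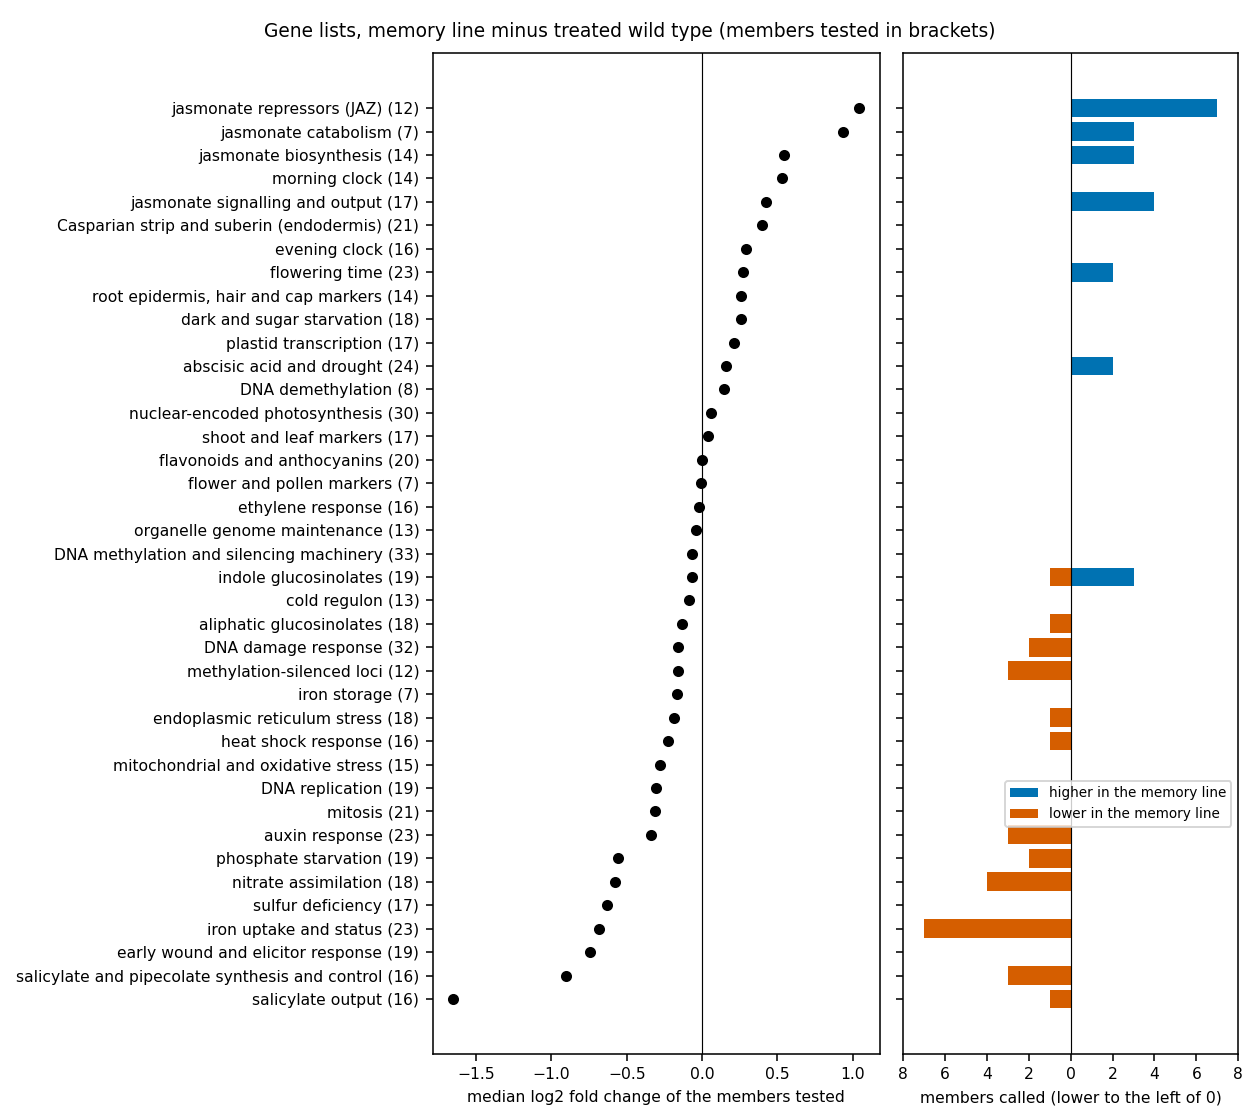
Median log2 fold change of the tested members of each gene list with at least 7 of them (left, points) and the number of members called higher or lower in the memory line (right, bars), for the memory line minus the treated wild type. The JAZ, jasmonate catabolism and jasmonate biosynthesis lists are at the top, with 7 of 12 JAZ genes called higher, and the iron and salicylate lists are near the bottom, with 7 of 23 iron genes called lower.

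Set beside untreated wild type, the named genes fell into different arrangements. JAZ7 had a log2 fold change of 0.08 for memory plants and -4.16 for treated wild type against it, and SDC had 0.41 and 4.44, so the treated wild type was the group apart. IRT1 had -3.96 and -0.41 and CYP81F2 had -1.49 and 0.07, so the memory line was the group apart. NAS2, with -1.78 and 1.46, and NRT3.1, with -1.22 and 0.60, were called on either side, the memory line below and the treated wild type above. MLP329 had 0.99 in the memory line, just short of a call (adjusted p = 0.0507, edgeR), and -1.24 in the treated wild type (adjusted p = 0.0056).

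**Figure D5:**
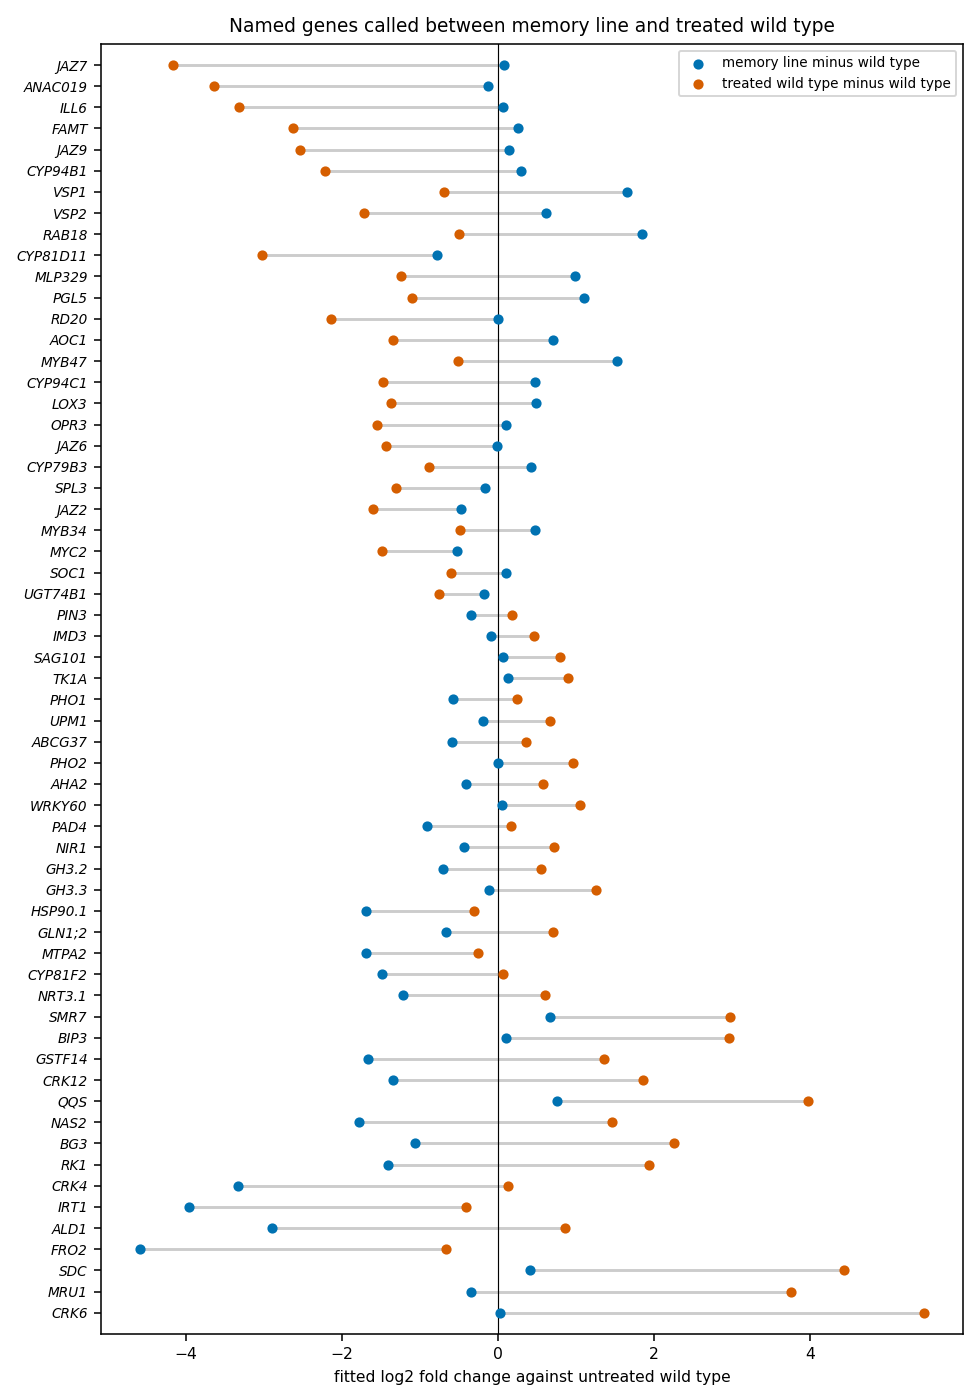
Fitted log2 fold change against untreated wild type of each named gene called between the memory line and the treated wild type, for the memory line (blue) and the treated wild type (orange), which share the untreated wild-type libraries. JAZ7 has its treated wild-type point far to the left and its memory-line point near 0, IRT1 and FRO2 have their memory-line points far to the left, and NAS2 has points on both sides of 0.

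The 40 genes called in the same direction in both comparisons kept the direction of the memory-line difference with the drug on either side. Neither comparison has both lines on the same treatment, but added together they equal the untreated and treated line differences added together. Equal signs therefore mean a line difference of that sign in the sum, though not on each treatment. HSP90.1 was among the 12 lower genes, with -1.39 in both comparisons. AT3G04650, annotated as an oxidoreductase of the FAD/NAD(P)-binding family and chosen for description after its values were seen, had 48.3 and 54.7 CPM in the memory line, 31.3 and 41 CPM in the treated memory line, 7.99, 6.97 and 6.83 CPM in the treated wild type and 8.11 to 9.64 CPM in untreated wild type. The memory-line groups lay above both wild-type groups without overlap, and its log2 fold changes were 2.82 (SE 0.16, adjusted p = 7.66e-07, edgeR) and 2.03 (adjusted p = 1.18e-05). GORK, the outward potassium channel of guard cells, had 17.7 and 17.4 CPM against 6.33, 7.21 and 6.91 CPM, with log2 fold changes of 1.36 (SE 0.18, adjusted p = 0.00131) and 0.78 (adjusted p = 0.0264). Genes for plastid proteins in this group, also chosen after their values were seen, had smaller differences, with 0.65 and 0.73 for TOC33, an import receptor, 0.68 and 0.70 for HY2, a phytochrome chromophore enzyme, and 0.55 and 0.76 for FSD2, an iron superoxide dismutase. In untreated plants, the memory line minus wild type gave 2.54 for AT3G04650 and -1.69 for HSP90.1. It gave 1.02 for GORK, 0.70 for TOC33, 0.75 for HY2 and 0.67 for FSD2, and all of these were called. CYP707A2, another of the 40, was not called there (-0.60, adjusted p = 0.34, edgeR). That untreated comparison shares its memory-line libraries with the first comparison.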

How the data were processed

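The authors deposited raw read counts per gene and technical library, as whole numbers, with TAIR10 identifiers per the file headers and labels. Per the submitters' processing notes, the genome was TAIR10 and DESeq2 was used, with no version. An aligner or counter is not given in the sources used here. Total RNA of whole plants went into TruSeq v2 libraries, per the labels' protocols, and that kit does not mark strand.

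Counts of technical libraries were summed per biological replicate, giving 11412839 to 13544859 in the 5 replicates compared. Entries that name no gene were left out. Between 48.3% and 49.3% of each replicate's uniquely aligned reads were counted under no feature. The strand setting of the count is not given, so these reads need not lie outside genes. Of 33977 identifiers, 32548 matched the RefSeq annotation of TAIR10.1, which supplied symbols and positions. Genes were filtered with filterByExpr (minimum count 10, minimum total 15), scaled by TMM and fitted over all 4 groups with edgeR 4.0.16's robust quasi-likelihood test in R 4.3.3. Calls used a Benjamini-Hochberg adjusted p under 0.05. Residual degrees of freedom were 6, and the common biological variation was 0.166. An SE is the size of the change over the square root of F. On simulated data with 100 changed genes the test recovered 74% of changes of 1 and 98% of changes of 2 on the log2 scale. Each of these runs also gave 9 false calls. No label states that replicates were separate cultures, so p-values cover the spread between these samples, which may be technical.

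Named genes were 18 fixed genes, up to 12 higher and 12 lower called genes with the largest changes (mean of at least 5 CPM, a symbol, no overlap) and up to 4 called members per list with the smallest p. The genes, lists and alternatives were chosen with earlier results of these data known. The 20 alternatives included DESeq2 1.42.0, limma 3.58.1 voom, other scalings, other filters and leaving out each replicate. Figures were drawn with matplotlib 3.10.9 in Python 3.11.15.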

Additional observations from a re-analysis of the deposited data

Results flagged for a closer look

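Reads that had aligned to more than 1 place are counted by none of the genes, and their share is a measure outside the gene counts. It was 25.7% in memory-line replicate 2 and 11.4% in treated wild-type replicate 3, above the 6.49% to 10.5% of the untreated wild-type replicates. The part of these reads in the results was not tested.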

How the results depend on the processing

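The comparison was most sensitive to single libraries. Leaving out 1 replicate gave 170 to 824 called genes, 68 to 459 higher and 100 to 419 lower, and for the treated memory line against untreated wild type 270 to 2561, 191 to 1346 and 79 to 1215. DESeq2 called 1126 genes (502 higher, 624 lower), among them all 645, and limma voom on technical libraries 1645 (790 and 855), with 581 shared. In the other comparison DESeq2 called 2049 (1063 lower), limma voom 3895 (1988 and 1907), and the compared groups alone 811 (412 higher). Deviations of same-numbered replicates from their group means correlated at 0.03 and 0.06. With 2 memory-line replicates these deviations mirror each other, so the 2 values are not separate checks and cannot settle whether replicate numbers pair the samples. With the replicate block 725 genes were called, 471 of them shared, and 895 were lower in the other comparison. Other scalings, filters and sample sets, and the first technical library alone, gave 447 to 723 calls.

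Of the 60 called genes selected by the naming rule, none turned direction, and 22 stayed called under every alternative in which they were tested. These were 12 higher genes, among them JAZ7, JAZ9, ILL6 and VSP2, and 10 lower genes, among them SDC, QQS, NAS2 and NRT3.1. SDC was tested in 19 of the 20 alternatives, since the fit without genes overlapped by antisense exons leaves it out. More of the 60 lost the call without memory-line replicate 2 than under any other alternative. Among uncalled genes the log2 fold change turned sign for DDM1 (0.01 with the block, 0.05 without treated wild-type replicate 2, 0.18 without memory-line replicate 2), LHY (0.01 with the first technical library alone, 0.08 without treated wild-type replicate 2, 0.02 with limma voom), FLC (-0.02 with the block, -0.18 without treated wild-type replicate 3, -0.40 without memory-line replicate 2), and, without memory-line replicate 2, GI (-0.06), BRCA1 (0.18) and AOX1A (-0.03). The cause was not tested. Over all fits that left out 1 replicate these 6 genes ranged from -0.39 to 0.18 (DDM1), -0.26 to 0.08 (LHY), -0.40 to 0.48 (FLC), -0.06 to 0.57 (GI), -1.01 to 0.18 (BRCA1) and -0.03 to 0.28 (AOX1A). Genes near 0 CPM have imprecise folds at this depth, and with the first technical library alone 447 genes were called.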

Other observations

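Receptor families were counted after their members had appeared among the called genes, so the counts are descriptions. Of 32 tested cysteine-rich receptor-like kinase genes, 5 were called lower in the memory line (CRK6, CRK7, CRK15, CRK12 and CRK4), none was called higher, and 27 had negative log2 fold changes with a median of -0.64. Over all genes 1.57% were called lower. CRK7, at 0 and 0.094 CPM against 3.92, 1.78 and 1.65 CPM, and CRK15, at 0.43 and 0.188 CPM against 3.62, 2.79 and 1.33 CPM, were low genes. Of 45 receptor-like protein genes, 4 were lower. RLP34 had 12 and 6.29 CPM against 60.1, 31.5 and 33.3 CPM, and RLP37 had 5.16 and 1.31 CPM against 14.2, 10.5 and 11.5 CPM. Both cell-wall-associated kinase genes WAK2 and WAK4 were called lower, of 4 tested. All of RK1, RK2 and RK3, S-domain receptor kinases, were lower. RK2 and RK3 were also lower in the treated memory line against untreated wild type, by -1.32 and -1.44 on the log2 scale, whereas the value for RK1 was -1.33 without a call.

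AT2G21640, annotated as a marker of oxidative stress, had 31.4 and 15.2 CPM in the memory line, 34.3 and 37.9 CPM in the treated memory line, 5.5, 5.58 and 7.61 CPM in the treated wild type and 7.17 to 7.39 CPM in untreated wild type. Its log2 fold changes were 1.91 (SE 0.25, adjusted p = 0.00146, edgeR) and 2.31 (adjusted p = 0.00037). AT1G52120, chosen in the same way, was at 0.932 and 0.47 CPM in the untreated memory line and at 5.91 to 10.5 CPM in all other replicates.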
